A study of Rattus norvegicus with 10 samples.

Results

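The 48 genes described here encode proteins that copy DNA or carry out mitosis, and they were taken by name from a fixed list of 22 replication and 26 mitosis genes. By their medians, genes of both kinds were highest in necrotic rat kidneys of choline-deficient animals and lowest in kidneys of animals fed fish oil, with or without choline. Each gene was read from the probe set annotated with its symbol, and where there were several from that with the highest mean over the 10 arrays. A probe set was found for 43 of the 48 genes, 20 of replication and 23 of mitosis, among 14506 genes named on the array. Mcm3, Mcm4, Cenpe, Cenpf and Mki67 had no probe set under their symbol. All 43 measured genes had a mean level over the 10 arrays, necrotic pools included, above the 25th percentile of the 29214 probe sets. Gins1 (percentile 25.5) and Ttk (28.5) were nearest to that limit. Their fish oil pools lay below their own means, at 5.08 to 5.53 for Gins1 and 4.68 to 5.47 for Ttk, so low signal there is not excluded.

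The animals were male weanling Wistar rats, still in postnatal growth, that ate 1 of 4 diets for 6 days. Choline was withheld or supplied, and the fat was either vegetable (corn and hydrogenated oils, called corn oil in the sample names) or menhaden fish oil. Every array carried RNA from whole kidney tissue of 3 pooled animals, and every group had 2 such pools, replicates 1 and 2. Among the pools that lacked choline with vegetable oil, the sample names set apart 2 as necrotic, and the sources used here do not say how animals were sorted into them. This gives 5 groups of pools. Necrotic, deficient vegetable oil and control vegetable oil name the groups fed vegetable oil, without choline for the first pair and with it for the third. The groups given menhaden oil are called deficient fish oil (no choline) and control fish oil (choline supplied). Values are log2 intensities as deposited, so a step of 1 is a 2-fold change, and levels of different genes are not compared because probes differ in brightness. Differences are given as log2 with the moderated standard error of a fit over all 10 arrays (limma), and a gene is said to have risen or fallen where its p was under 0.05 after adjustment for all 29214 probe sets (Benjamini-Hochberg). With 2 pools in a group, the spread measures variation between pools of animals and not between single animals.

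A cell that is to divide first assembles the MCM helicase on its DNA, a step called licensing, with the loaders Cdc6 and Cdt1. In S phase the helicase is activated, polymerases copy both strands, and ribonucleotide reductase, thymidylate synthase and thymidine kinase supply the nucleotides. Most of these genes are transcribed by E2F factors at the border of G1 and S phase. The mitosis genes follow later, in G2, when cyclins and Cdk1 start mitosis, Polo and Aurora kinases build the spindle, checkpoint kinases watch the attachment of chromosomes, and the anaphase-promoting complex ends it. Many of them are held down in resting cells by the DREAM complex and switched on by B-Myb and Foxm1 through a promoter element named CHR, often with a CCAAT box nearby. In the adult kidney few cells divide. Tubule cells of growing animals divide more often, and surviving tubule cells re-enter the cycle after injury.

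Promoter letters differed between the replication and mitosis genes, and 4 windows are shown for that reason. Rrm2, the replication gene with the largest difference between necrotic and deficient fish oil kidneys, was not in the promoter table. The windows are those of the genes of each kind with the largest such difference for which a window was found. Each runs 5′ to 3′ on the gene's strand from 250 bases before to 50 after the start in RefSeq on build GRCr8. They lie at chr19:13488563-13488862 (plus strand) for Mcm5, chr13:42404303-42404602 (minus strand) for Mcm6, chr1:186147408-186147707 (plus strand) for Plk1 and chr8:93634389-93634688 (plus strand) for Ttk. Capitals mark E2F letters (TTCGCGC or TTGGCGC), CHR letters (TTTGAA or TTCGAA) and the CCAAT box (CCAAT), each searched on both strands, with overlapping matches joined.
Mcm5: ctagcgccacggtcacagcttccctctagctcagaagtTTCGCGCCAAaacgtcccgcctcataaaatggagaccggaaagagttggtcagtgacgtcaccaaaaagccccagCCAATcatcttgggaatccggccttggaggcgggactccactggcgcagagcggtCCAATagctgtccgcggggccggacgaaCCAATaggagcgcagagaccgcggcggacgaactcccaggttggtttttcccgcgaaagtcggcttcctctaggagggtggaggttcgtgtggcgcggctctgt
Mcm6: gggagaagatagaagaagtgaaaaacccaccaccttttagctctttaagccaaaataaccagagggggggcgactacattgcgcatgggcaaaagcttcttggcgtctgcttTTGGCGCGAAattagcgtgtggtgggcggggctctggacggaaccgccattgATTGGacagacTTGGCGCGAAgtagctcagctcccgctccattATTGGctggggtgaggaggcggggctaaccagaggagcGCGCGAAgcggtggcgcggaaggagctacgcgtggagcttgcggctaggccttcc
Plk1: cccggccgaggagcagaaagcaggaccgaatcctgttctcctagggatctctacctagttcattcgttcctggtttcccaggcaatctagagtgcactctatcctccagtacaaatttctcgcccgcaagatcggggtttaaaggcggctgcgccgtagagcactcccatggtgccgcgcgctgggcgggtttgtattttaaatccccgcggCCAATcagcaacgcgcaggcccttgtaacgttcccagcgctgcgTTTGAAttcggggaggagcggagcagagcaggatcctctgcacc
Ttk: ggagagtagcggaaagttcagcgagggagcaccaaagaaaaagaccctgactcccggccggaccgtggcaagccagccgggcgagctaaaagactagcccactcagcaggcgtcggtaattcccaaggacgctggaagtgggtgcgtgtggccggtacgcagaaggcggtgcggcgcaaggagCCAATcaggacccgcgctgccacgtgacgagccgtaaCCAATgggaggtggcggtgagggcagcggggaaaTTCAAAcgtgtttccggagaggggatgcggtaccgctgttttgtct
Mcm5 and Mcm6 hold E2F letters and CCAAT boxes and no CHR letters, and Plk1 and Ttk hold CHR letters downstream of a CCAAT box and no E2F letters. A window was found for 15 of the 20 replication and 18 of the 23 mitosis genes. E2F letters stood in 9 of 15 replication windows (60.0%) and in 1 of 18 mitosis windows (5.56%), that of Cdk1, against 4.12% of all 27457 windows in the table. CHR letters stood in 4 of 15 replication windows (26.7%) and 12 of 18 mitosis windows (66.7%), against 21.0% of all. A CCAAT box was found in 10 of 15 (66.7%) and 13 of 18 (72.2%), against 39.6% of all. CCAAT and CHR letters stood together in 3 replication windows (20.0%) and 10 mitosis windows (55.6%), against 9.15% of all. A match of letters does not show that a factor binds there, and a window without them says nothing about the factor.

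Measured as the median deviation of the genes of a kind from their own means, the 2 kinds ordered the 10 arrays much alike. The replication median was 0.47 and 0.81 in the necrotic pools, 0.15 and 0.09 in the deficient vegetable oil pools, 0.20 and 0.06 in the control vegetable oil pools, -0.42 and -0.46 in the deficient fish oil pools and -0.32 and -0.44 in the control fish oil pools. The mitosis median was 0.71 and 1.66 in the necrotic pools, 0.25 and -0.36 in the deficient vegetable oil pools, 0.79 and 0.43 in the control vegetable oil pools, -0.72 and -0.76 in the deficient fish oil pools and -0.76 and -0.82 in the control fish oil pools. All 4 fish oil pools thus lay below all 6 vegetable oil pools for both medians, and necrotic replicate 2 was the highest array for both. The mitosis medians of the necrotic and control vegetable oil pools overlapped, and so did the replication medians of the deficient and control vegetable oil pools. The median of all probe sets deviated by -0.03 to 0.06. Kidney markers were high on every array, with a mean log2 level of 10.91 to 13.04 for 5 proximal tubule genes and 11.22 to 13.30 for 2 genes of the thick ascending limb, lowest in the necrotic pools, and 4 adrenal markers stood at 5.60 to 6.52.

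**Figure D1:**
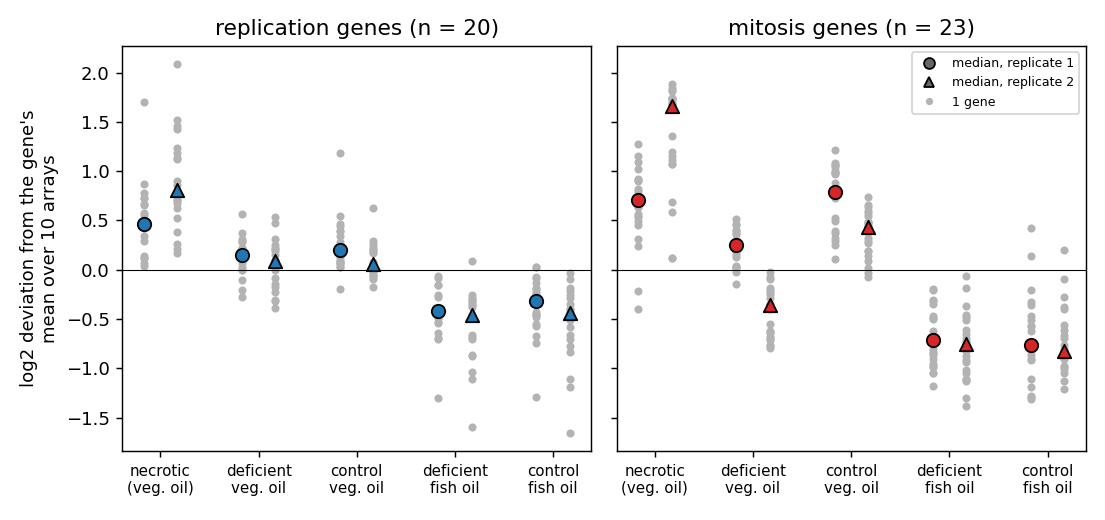
Deviation in log2 of each gene (grey points) from its own mean over the 10 arrays, for 20 replication genes (left) and 23 mitosis genes (right), by group, with the median of the genes on replicate 1 (circle) and replicate 2 (triangle). The 4 fish oil pools lie between -0.32 and -0.82 by their medians, and necrotic replicate 2 is highest in both panels, at 0.81 and 1.66.

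Gene by gene, the 4 fish oil pools lay below all 6 vegetable oil pools for 15 of 20 replication and 14 of 23 mitosis genes, a pattern that 3.85% of all probe sets showed. Both necrotic pools lay above the other 8 pools for 13 replication and 10 mitosis genes, against 14.9% of all probe sets. Necrotic replicate 2 was the highest array for 17 replication and 21 mitosis genes, and the share of all probe sets with this order was not counted. Across the 10 arrays the median correlation between pairs of genes was 0.858 among replication genes, 0.944 among mitosis genes and 0.862 between the kinds. These correlations are descriptive, since the arrays fall into diet groups. Melk, Tyms and Kif11 followed the median of their kind least, with r = 0.148, 0.219 and 0.317.

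**Figure D2:**
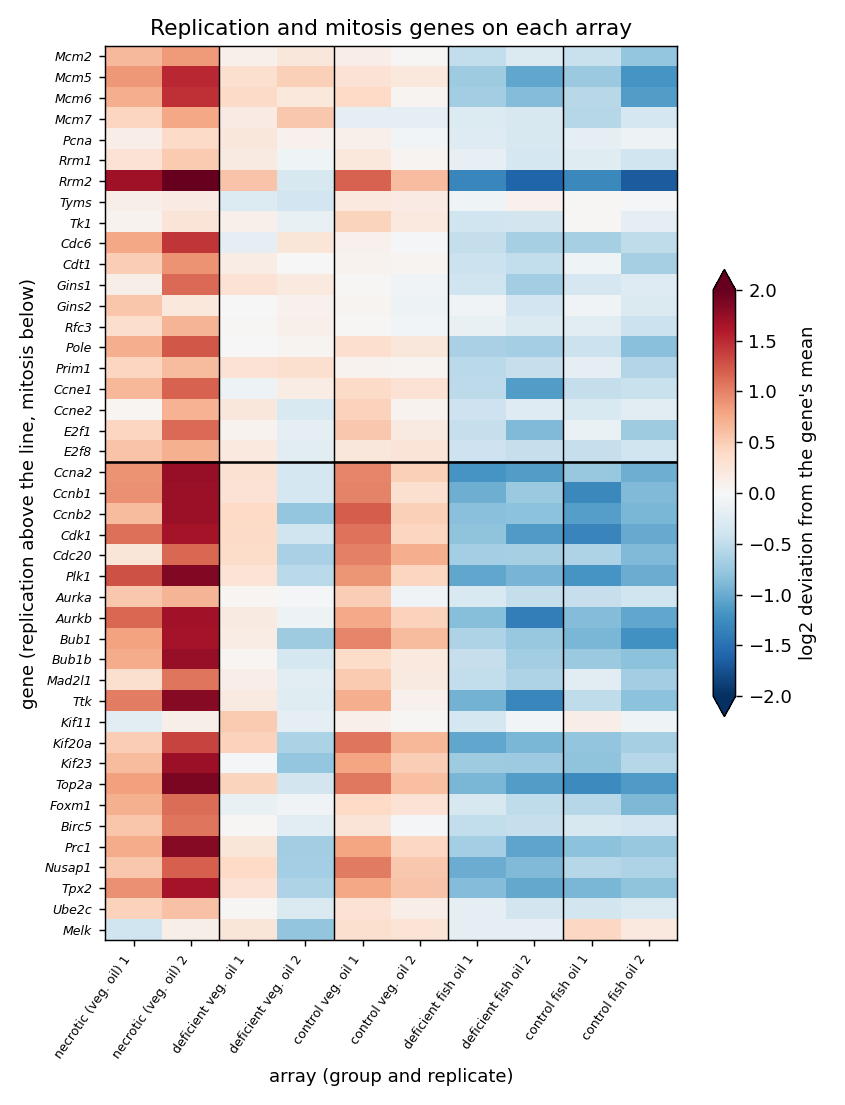
Colour gives the log2 deviation of each measured gene (rows, replication above the line and mitosis below) from its mean over the 10 arrays (columns, by group and replicate). The necrotic columns are mostly red and the 4 fish oil columns mostly blue, and the control vegetable oil columns are also red for most mitosis genes. Rrm2 has the widest range, while Tyms, Kif11 and Melk are pale or out of step.

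Licensing factors and helicase parts are the first group of replication genes. Mcm2, Mcm5, Mcm6 and Mcm7 are subunits of the ring-shaped MCM helicase. Mcm5 (probe set 10806129) measured 8.40 and 9.05 for necrotic, 7.85 and 8.01 for deficient vegetable oil, 7.82 and 7.75 for control vegetable oil, 6.83 and 6.50 for deficient fish oil and 6.79 and 6.35 for control fish oil pools. Mcm6 measured 8.56 and 9.29 for necrotic, 8.21 and 8.04 for deficient vegetable oil, 8.23 and 7.89 for control vegetable oil, 7.14 and 6.97 for deficient fish oil and 7.28 and 6.72 for control fish oil pools. Mcm2 measured 9.87 and 10.07 for necrotic, 9.32 and 9.44 for deficient vegetable oil, 9.34 and 9.24 for control vegetable oil, 8.73 and 8.93 for deficient fish oil and 8.77 and 8.44 for control fish oil pools. For these 3 subunits every necrotic pool lay above every other pool and every fish oil pool below every vegetable oil pool. Mcm7 measured 9.38 and 9.73 for necrotic, 9.12 and 9.49 for deficient vegetable oil, 8.76 and 8.78 for control vegetable oil, 8.68 and 8.64 for deficient fish oil and 8.39 and 8.61 for control fish oil pools. The fish oil pools were lowest here too, but deficient vegetable oil replicate 2 lay between the necrotic pools, and both deficient vegetable oil pools were above the control vegetable oil pools. Cdc6, the ATPase that helps load the ring, measured 7.47 and 8.12 for necrotic, 6.49 and 6.94 for deficient vegetable oil, 6.77 and 6.67 for control vegetable oil, 6.22 and 6.03 for deficient fish oil and 6.02 and 6.18 for control fish oil pools. Cdt1, its partner in loading, measured 7.71 and 8.12 for necrotic, 7.36 and 7.21 for deficient vegetable oil, 7.29 and 7.27 for control vegetable oil, 6.79 and 6.73 for deficient fish oil and 7.13 and 6.55 for control fish oil pools. Both loaders were highest in the necrotic and lowest in the fish oil pools without overlap, and for Cdc6 the deficient vegetable oil pools spanned the control vegetable oil values. Gins1 and Gins2 are subunits of the GINS complex, which activates the helicase. Gins1 measured 5.90 and 6.91 for necrotic, 6.07 and 5.97 for deficient vegetable oil, 5.81 and 5.71 for control vegetable oil, 5.39 and 5.08 for deficient fish oil and 5.45 and 5.53 for control fish oil pools. Its fish oil pools were all below the others, and the high necrotic mean came mainly from replicate 2. Gins2 measured 7.67 and 7.33 for necrotic, 7.11 and 7.21 for deficient vegetable oil, 7.17 and 7.02 for control vegetable oil, 7.05 and 6.74 for deficient fish oil and 7.04 and 6.83 for control fish oil pools. The fish and vegetable oil pools of Gins2 overlapped, and it was the 1 replication gene whose highest array was necrotic replicate 1.

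Next are the genes of DNA synthesis. Pcna, the sliding clamp that holds polymerases on DNA, measured 10.61 and 10.86 for necrotic, 10.70 and 10.56 for deficient vegetable oil, 10.57 and 10.42 for control vegetable oil, 10.22 and 10.15 for deficient fish oil and 10.28 and 10.38 for control fish oil pools. Its whole range was narrow, yet all 4 fish oil pools were below all vegetable oil pools. Rfc3, a subunit of the clamp loader, measured 7.52 and 7.85 for necrotic, 7.20 and 7.27 for deficient vegetable oil, 7.20 and 7.12 for control vegetable oil, 7.02 and 6.88 for deficient fish oil and 6.95 and 6.75 for control fish oil pools. Pole, the catalytic subunit of the leading-strand polymerase epsilon, measured 7.91 and 8.42 for necrotic, 7.18 and 7.23 for deficient vegetable oil, 7.52 and 7.41 for control vegetable oil, 6.54 and 6.50 for deficient fish oil and 6.75 and 6.35 for control fish oil pools. Prim1, the primase subunit that starts new strands, measured 9.75 and 9.94 for necrotic, 9.60 and 9.63 for deficient vegetable oil, 9.38 and 9.37 for control vegetable oil, 8.77 and 8.85 for deficient fish oil and 9.13 and 8.73 for control fish oil pools. All 3 had their necrotic pools on top and their fish oil pools at the bottom without overlap, and Prim1 was higher in the deficient than in the control vegetable oil pools, whereas Pole was lower.

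The enzymes that make deoxynucleotides were the most varied group. Rrm2, the subunit of ribonucleotide reductase that is made for S phase, measured 10.62 and 11.00 for necrotic, 9.48 and 8.60 for deficient vegetable oil, 10.10 and 9.54 for control vegetable oil, 7.62 and 7.32 for deficient fish oil and 7.63 and 7.26 for control fish oil pools. It had the widest range of all measured members, with the necrotic pools on top, then the control and the deficient vegetable oil pools without overlap, and all fish oil pools far below. A further probe set of Rrm2 ran in parallel, from 10.15 and 10.72 in the necrotic to 7.27 and 6.89 in the control fish oil pools. Rrm1, its partner subunit, measured 10.75 and 10.98 for necrotic, 10.63 and 10.37 for deficient vegetable oil, 10.67 and 10.51 for control vegetable oil, 10.30 and 10.10 for deficient fish oil and 10.21 and 10.06 for control fish oil pools. It too was highest in the necrotic and lowest in the fish oil pools, over a narrower range, and its further probe set stayed between 5.03 and 5.66 on every array. Tyms, thymidylate synthase, measured 9.67 and 9.72 for necrotic, 9.27 and 9.16 for deficient vegetable oil, 9.75 and 9.72 for control vegetable oil, 9.46 and 9.64 for deficient fish oil and 9.58 and 9.52 for control fish oil pools. It went against the rest, with its lowest values in the deficient vegetable oil pools and with fish oil pools close to the necrotic and control ones. Tk1, the thymidine kinase of S phase, measured 7.68 and 7.87 for necrotic, 7.71 and 7.46 for deficient vegetable oil, 8.05 and 7.81 for control vegetable oil, 7.21 and 7.25 for deficient fish oil and 7.64 and 7.42 for control fish oil pools. It was highest in control vegetable oil replicate 1, and the deficient fish oil pools were lowest.

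Regulators of S phase entry close the replication genes. Cyclin E, encoded by Ccne1 and Ccne2, activates Cdk2, E2f1 activates S phase genes and E2f8 is an E2F that represses them. Ccne1 measured 7.26 and 7.77 for necrotic, 6.49 and 6.74 for deficient vegetable oil, 6.98 and 6.88 for control vegetable oil, 6.06 and 5.48 for deficient fish oil and 6.11 and 6.14 for control fish oil pools. E2f8 measured 8.16 and 8.29 for necrotic, 7.77 and 7.36 for deficient vegetable oil, 7.81 and 7.84 for control vegetable oil, 7.17 and 7.12 for deficient fish oil and 7.12 and 7.18 for control fish oil pools. Both had necrotic pools above and fish oil pools below all others, and both were lower in the deficient than in the control vegetable oil pools. E2f1 measured 8.13 and 8.84 for necrotic, 7.77 and 7.53 for deficient vegetable oil, 8.25 and 7.89 for control vegetable oil, 7.25 and 6.83 for deficient fish oil and 7.57 and 7.00 for control fish oil pools. Ccne2 measured 7.57 and 8.24 for necrotic, 7.76 and 7.23 for deficient vegetable oil, 8.0 and 7.61 for control vegetable oil, 7.13 and 7.28 for deficient fish oil and 7.23 and 7.32 for control fish oil pools. For E2f1 and Ccne2 deficient vegetable oil replicate 2 lay inside the range of the fish oil pools, and Ccne2 was the 1 replication gene that passed in none of the 7 comparisons between groups.

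**Figure D3:**
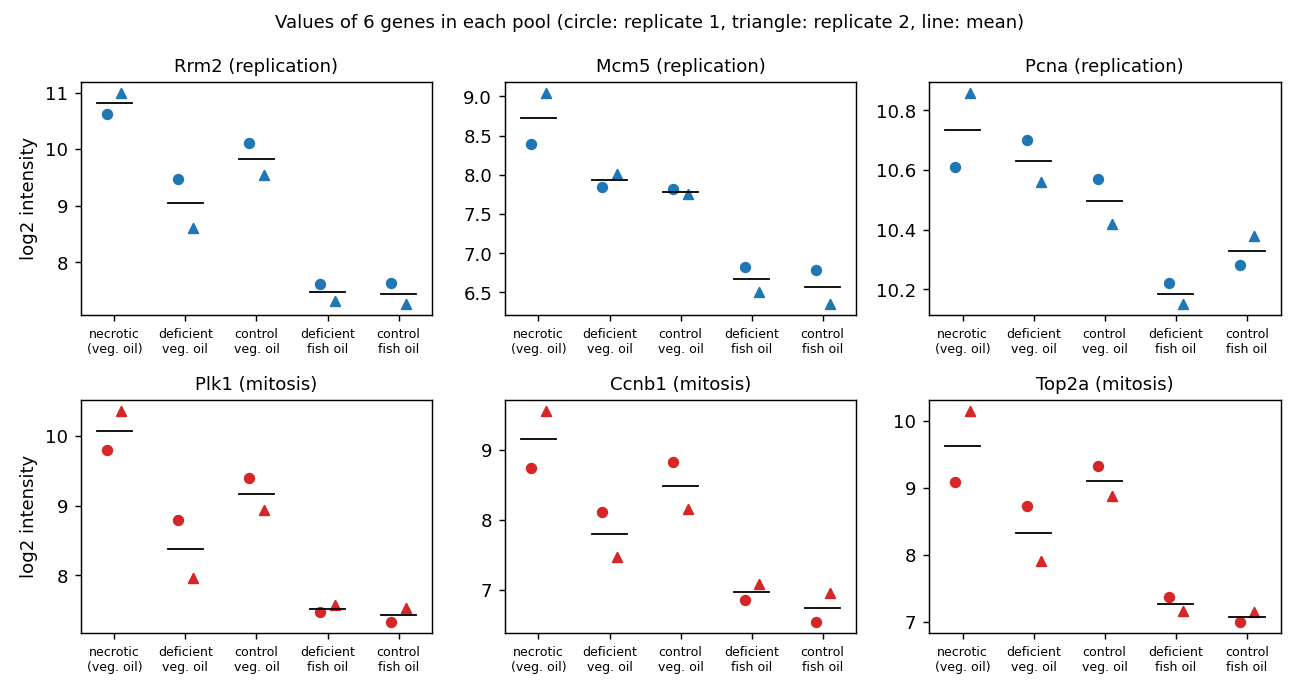
Log2 intensity of 6 genes in every pool by group (circle replicate 1, triangle replicate 2, line the mean of the 2 pools), each panel with its own axis. All 4 fish oil pools lie below all vegetable oil pools in each panel, and the range is wide for Rrm2 (7.26 to 11.00) and narrow for Pcna (10.15 to 10.86).

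Among the mitosis genes, the cyclins and their kinase come first. Cdk1, the kinase that starts mitosis, measured 8.64 and 9.20 for necrotic, 7.92 and 7.14 for deficient vegetable oil, 8.63 and 7.98 for control vegetable oil, 6.74 and 6.41 for deficient fish oil and 6.23 and 6.54 for control fish oil pools. Its activators are cyclins A and B. Ccna2 measured 9.01 and 9.85 for necrotic, 8.41 and 7.76 for deficient vegetable oil, 9.09 and 8.59 for control vegetable oil, 6.93 and 7.00 for deficient fish oil and 7.35 and 7.13 for control fish oil pools. Ccnb1 measured 8.74 and 9.56 for necrotic, 8.12 and 7.47 for deficient vegetable oil, 8.82 and 8.15 for control vegetable oil, 6.85 and 7.08 for deficient fish oil and 6.54 and 6.95 for control fish oil pools. Ccnb2 measured 8.95 and 10.04 for necrotic, 8.72 and 7.55 for deficient vegetable oil, 9.53 and 8.80 for control vegetable oil, 7.48 and 7.49 for deficient fish oil and 7.21 and 7.41 for control fish oil pools. All 4 genes were high in necrotic replicate 2, lower in deficient than in control vegetable oil pools without overlap, and lowest in the fish oil pools. The control vegetable oil pools reached the values of necrotic replicate 1 for the 3 cyclins, so those groups overlapped. A further Ccnb2 probe set ran in parallel, from 8.90 and 9.94 in the necrotic to 7.20 and 7.37 in the control fish oil pools. Foxm1, the transcription factor of G2 genes, measured 9.33 and 9.73 for necrotic, 8.47 and 8.54 for deficient vegetable oil, 9.01 and 8.91 for control vegetable oil, 8.30 and 8.10 for deficient fish oil and 8.04 and 7.72 for control fish oil pools. Its groups fell apart without overlap with necrotic highest, then control and deficient vegetable oil, and last the deficient and the control pools on fish oil.

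Mitotic kinases are the next group. Plk1, the Polo kinase of spindle assembly, measured 9.79 and 10.36 for necrotic, 8.79 and 7.97 for deficient vegetable oil, 9.40 and 8.94 for control vegetable oil, 7.47 and 7.58 for deficient fish oil and 7.33 and 7.53 for control fish oil pools. Aurkb, the Aurora kinase of the chromosomal passenger complex, measured 9.23 and 9.76 for necrotic, 8.25 and 7.98 for deficient vegetable oil, 8.84 and 8.53 for control vegetable oil, 7.23 and 6.69 for deficient fish oil and 7.21 and 7.03 for control fish oil pools. Aurka, the Aurora kinase of the centrosome, measured 7.48 and 7.63 for necrotic, 6.98 and 6.92 for deficient vegetable oil, 7.44 and 6.87 for control vegetable oil, 6.64 and 6.47 for deficient fish oil and 6.48 and 6.55 for control fish oil pools. All 3 had the necrotic pools on top and the fish oil pools at the bottom, and only for Aurka did the deficient and control vegetable oil pools overlap. Birc5, survivin, which works with Aurkb, measured 7.67 and 8.18 for necrotic, 7.13 and 6.90 for deficient vegetable oil, 7.36 and 7.07 for control vegetable oil, 6.61 and 6.65 for deficient fish oil and 6.78 and 6.73 for control fish oil pools. The kinases of the spindle checkpoint follow. Ttk, which starts the checkpoint, measured 7.00 and 7.80 for necrotic, 6.17 and 5.74 for deficient vegetable oil, 6.71 and 6.07 for control vegetable oil, 5.03 and 4.68 for deficient fish oil and 5.47 and 5.16 for control fish oil pools. Bub1b measured 7.01 and 8.01 for necrotic, 6.30 and 5.91 for deficient vegetable oil, 6.64 and 6.46 for control vegetable oil, 5.80 and 5.58 for deficient fish oil and 5.53 and 5.44 for control fish oil pools. Birc5, Ttk and Bub1b lay highest in both necrotic and lowest in all fish oil pools. Bub1 measured 7.63 and 8.49 for necrotic, 6.98 and 6.12 for deficient vegetable oil, 7.80 and 7.47 for control vegetable oil, 6.21 and 6.07 for deficient fish oil and 5.92 and 5.62 for control fish oil pools. Mad2l1, the checkpoint protein that blocks Cdc20, measured 8.07 and 8.83 for necrotic, 7.88 and 7.53 for deficient vegetable oil, 8.28 and 7.94 for control vegetable oil, 7.26 and 7.14 for deficient fish oil and 7.55 and 7.06 for control fish oil pools. For Bub1, deficient vegetable oil replicate 2 lay inside the range of the fish oil pools, and for Mad2l1 just below the highest of them. Melk, a kinase of proliferating cells, measured 6.75 and 7.27 for necrotic, 7.40 and 6.36 for deficient vegetable oil, 7.47 and 7.42 for control vegetable oil, 6.95 and 6.97 for deficient fish oil and 7.57 and 7.35 for control fish oil pools. It ran apart from its kind, with a fish oil pool as its highest array and deficient vegetable oil replicate 2 as its lowest.

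The remaining mitosis genes act on the spindle, on chromosomes or at mitotic exit. Top2a, which untangles sister chromosomes, measured 9.09 and 10.15 for necrotic, 8.72 and 7.91 for deficient vegetable oil, 9.33 and 8.87 for control vegetable oil, 7.36 and 7.15 for deficient fish oil and 6.99 and 7.14 for control fish oil pools. Tpx2, which activates Aurora A on the spindle, measured 9.04 and 9.79 for necrotic, 8.41 and 7.50 for deficient vegetable oil, 8.90 and 8.69 for control vegetable oil, 7.25 and 7.10 for deficient fish oil and 7.20 and 7.31 for control fish oil pools. Both were lowest in the fish oil pools without overlap and lower in deficient than in control vegetable oil pools. Nusap1, which binds spindle microtubules, measured 8.14 and 8.79 for necrotic, 8.0 and 6.91 for deficient vegetable oil, 8.64 and 8.14 for control vegetable oil, 6.61 and 6.72 for deficient fish oil and 7.02 and 6.98 for control fish oil pools. Prc1, which bundles the midzone, measured 8.69 and 9.77 for necrotic, 8.19 and 7.26 for deficient vegetable oil, 8.74 and 8.37 for control vegetable oil, 7.27 and 6.90 for deficient fish oil and 7.13 and 7.19 for control fish oil pools. In both, deficient vegetable oil replicate 2 was inside the range of the fish oil pools while replicate 1 lay above it. Kif20a, a midzone kinesin, measured 7.85 and 8.71 for necrotic, 7.82 and 6.72 for deficient vegetable oil, 8.42 and 8.01 for control vegetable oil, 6.31 and 6.44 for deficient fish oil and 6.56 and 6.69 for control fish oil pools. Kif23, a kinesin of cytokinesis, measured 7.72 and 8.79 for necrotic, 7.06 and 6.31 for deficient vegetable oil, 7.87 and 7.57 for control vegetable oil, 6.37 and 6.36 for deficient fish oil and 6.28 and 6.52 for control fish oil pools. The control vegetable oil pools of Kif20a and Kif23 lay between or next to the necrotic pools, and the deficient vegetable oil pools were below both. Kif11, the kinesin that pushes spindle poles apart, measured 8.24 and 8.58 for necrotic, 8.98 and 8.28 for deficient vegetable oil, 8.57 and 8.48 for control vegetable oil, 8.11 and 8.40 for deficient fish oil and 8.60 and 8.37 for control fish oil pools. Deficient vegetable oil replicate 1 was its highest array, and both deficient fish oil pools lay below both control vegetable oil pools, while the necrotic pools spanned most of the other values. Cdc20, the activator of the anaphase-promoting complex, measured 8.81 and 9.72 for necrotic, 8.93 and 7.92 for deficient vegetable oil, 9.57 and 9.30 for control vegetable oil, 7.88 and 7.91 for deficient fish oil and 7.95 and 7.68 for control fish oil pools. Ube2c, the ubiquitin-conjugating enzyme of that complex, measured 9.24 and 9.37 for necrotic, 8.81 and 8.49 for deficient vegetable oil, 9.07 and 8.92 for control vegetable oil, 8.59 and 8.41 for deficient fish oil and 8.42 and 8.50 for control fish oil pools. Cdc20 overlapped between necrotic and control vegetable oil pools, and Ube2c was highest in the necrotic pools over a narrow range. For Cdc20, Ube2c and Kif23, deficient vegetable oil replicate 2 lay inside the range of the fish oil pools.

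The first comparison asked how necrotic kidneys differed from kidneys given the same oil with choline. Replication genes were moderately higher in the necrotic kidneys and mitosis genes less evenly so. Of the 20 replication genes 7 rose and 0 fell, where 10.2% of all probe sets rose and 10.7% fell, with a median difference of 0.56 over the 20 and of 0.06 over all probe sets. Cdc6 rose by 1.07 ± 0.22 (adjusted p = 0.0103), Mcm5 by 0.94 ± 0.23 (0.0211), Mcm6 by 0.86 ± 0.26 (0.0477), Mcm7 by 0.78 ± 0.17 (0.0116), Pole by 0.70 ± 0.19 (0.0286), Mcm2 by 0.68 ± 0.15 (0.0126) and Rfc3 by 0.52 ± 0.14 (0.031). Of the 23 mitosis genes 5 rose and 0 fell, with a median of 0.54. These were Ttk by 1.01 ± 0.31 (0.0489), Bub1b by 0.96 ± 0.29 (0.0444), Aurkb by 0.81 ± 0.23 (0.0405), Birc5 by 0.70 ± 0.18 (0.0259) and Foxm1 by 0.57 ± 0.17 (0.0425). All 4 measured MCM subunits were among the rises, and no cyclin or kinesin passed. Ccnb1 (0.66 ± 0.34), Ccna2 (0.59 ± 0.30), Ccne1 (0.59 ± 0.22) and Kif23 (0.54 ± 0.34) differed about as much as Rfc3 and Foxm1, with larger standard errors. Ccnb2, Ccne2, Kif11 and Kif20a differed less. These families were not tested against each other. The mitosis median was 0.17 without necrotic replicate 2 and 0.90 without necrotic replicate 1. The calls rest on few pools. The replication count fell to 1 without necrotic replicate 2 or control vegetable oil replicate 1 (Cdc6 each time) and to 0 without control vegetable oil replicate 2, and the mitosis count was 6 without necrotic replicate 1 and between 0 and 3 without any other array. Median centring of the arrays shifted the median difference of all probe sets (0.06) to -0.04 and the rises among all calls from 49.0% to 36.2%, and it left 4 replication calls (Cdc6, Mcm2, Mcm5 and Mcm7) and 0 mitosis calls. Of 11 macrophage markers measured 10 rose here, with a median of 2.15, as did 4 of 5 fibroblast markers, 5 of 6 neutrophil markers, 1 of 6 erythroid markers and 0 of 6 lymphocyte markers, while 4 of 5 proximal tubule markers fell. In whole tissue, more cells of a type and more RNA per cell cannot be told apart, and the part of these cells in the rise was not tested.

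The second comparison set deficient against control vegetable oil kidneys, that is, choline lack without the word necrotic. Mitosis genes were mostly lower in the deficient pools, and replication genes had no common direction, but no member passed the test. Of 23 mitosis genes 22 had a lower mean, with a median of -0.75, and both deficient pools lay below both control pools for 19 of them, as they did for 23.8% of all probe sets. With limma 0 mitosis genes passed, while at an unadjusted p under 0.05 13 were lower and 0 higher, against 7.2% lower and 7.99% higher among all probe sets. Bub1 had a difference of -1.09 ± 0.33 (adjusted p = 0.185), Kif23 of -1.04 ± 0.34 (0.218) and Cdc20 of -1.01 ± 0.36 (0.244). The size of the mitosis median hung on single pools, since it was -0.38 without deficient vegetable oil replicate 2 and -1.08 without replicate 1. Of 20 replication genes 10 were higher and 10 lower in mean, with a median of 0.00, and 0 passed. At the unadjusted level Mcm7 was higher, at 0.53 ± 0.17 (adjusted p = 0.199), and Tyms, Rrm2 and Tk1 were lower, Tyms at -0.52 ± 0.11 (adjusted p = 0.0747). In this comparison 1.13% of all probe sets passed. Tyms passed under the 25th percentile filter and under a trended and robust prior, and Nusap1 passed without deficient vegetable oil replicate 1, the pool with the higher mitosis values. Of 11 macrophage markers 1 rose here, with a median of 0.84, and no marker of the other cell types passed. Medians were above 0 for 6 neutrophil markers (0.58) and 6 lymphocyte markers (0.33). They were below 0, as for the mitosis genes, for 6 erythroid markers (-0.37, 3 lower at an unadjusted p under 0.05), 6 endothelial markers (-0.32, 2 lower) and 5 proximal tubule markers (-0.45, 3 lower). The part of these cells in the mitosis difference was not tested.

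Necrotic and deficient vegetable oil kidneys came from the same diet, and the third comparison asked what set the necrotic ones apart. More mitosis than replication genes rose. Of 23 mitosis genes 14 rose and 0 fell, against 4.71% of all probe sets higher and 5.08% lower, with a median of 1.34 (0.02 over all probe sets). Plk1 rose by 1.70 ± 0.29 (adjusted p = 0.00874), Kif23 by 1.58 ± 0.34 (0.0237), Bub1 by 1.51 ± 0.33 (0.0237), Prc1 by 1.50 ± 0.38 (0.0411) and Tpx2 by 1.46 ± 0.31 (0.021). The other 9, from Ttk at 1.45 to Ube2c at 0.66, were Bub1b, Cdk1, Aurkb, Ccnb1, Ccna2, Foxm1 and Birc5 besides those 2. Of 20 replication genes 7 rose, with a median of 0.53. Rrm2 rose by 1.77 ± 0.31 (0.00959), Cdc6 by 1.08 ± 0.22 (0.0198), Pole by 0.96 ± 0.19 (0.015), Ccne1 by 0.90 ± 0.22 (0.0371) and E2f8 by 0.66 ± 0.14 (0.0238), and Mcm2 and Tyms rose as well, by 0.59 and 0.48. This comparison shares the necrotic pools with the preceding one between necrotic and control kidneys. Both counts depended on necrotic replicate 2, without which 0 replication and 2 mitosis genes (Bub1b and Foxm1) passed and the mitosis median was 0.83, and on the deficient pools, with 3 and 3 without replicate 2 and 2 replication genes without replicate 1. Either control vegetable oil pool left out gave 4 replication genes, and a fit of the 4 arrays alone gave 0 and 1 (Aurkb). Here 7 of 11 macrophage markers rose and 1 fell, 4 of 5 fibroblast markers, 4 of 6 neutrophil markers and 3 of 6 erythroid markers rose, and their part was not tested.

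Under fish oil, choline lack was compared with choline supply, and no member passed the test. The median differences were -0.02 for 20 replication genes and -0.04 for 23 mitosis genes. With limma 0 genes of either kind passed, and 0.0% of all probe sets did. At an unadjusted p under 0.05 there were 0 genes of either kind, against 1.25% of all probe sets higher and 2.3% lower, 1036 in number. The largest differences were those of Melk, at -0.50 ± 0.30, and, among replication genes, Ccne1, at -0.36 ± 0.22. Without 1 array the medians crossed 0, between -0.13 and 0.051 for replication and between -0.049 and 0.062 for mitosis genes. A missed threshold does not show that the diets act alike, since the 95% interval of the difference reached 0.57 to either side of it for the median member and 0.25 for the narrowest. That interval and the p-values draw on the spread within all 5 groups, which was unequal for mitosis genes. The pools differed by a median size of 0.76 in the necrotic, 0.75 in the deficient and 0.34 in the control vegetable oil group. In the deficient and control fish oil groups it was 0.16 and 0.20.

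**Figure D4:**
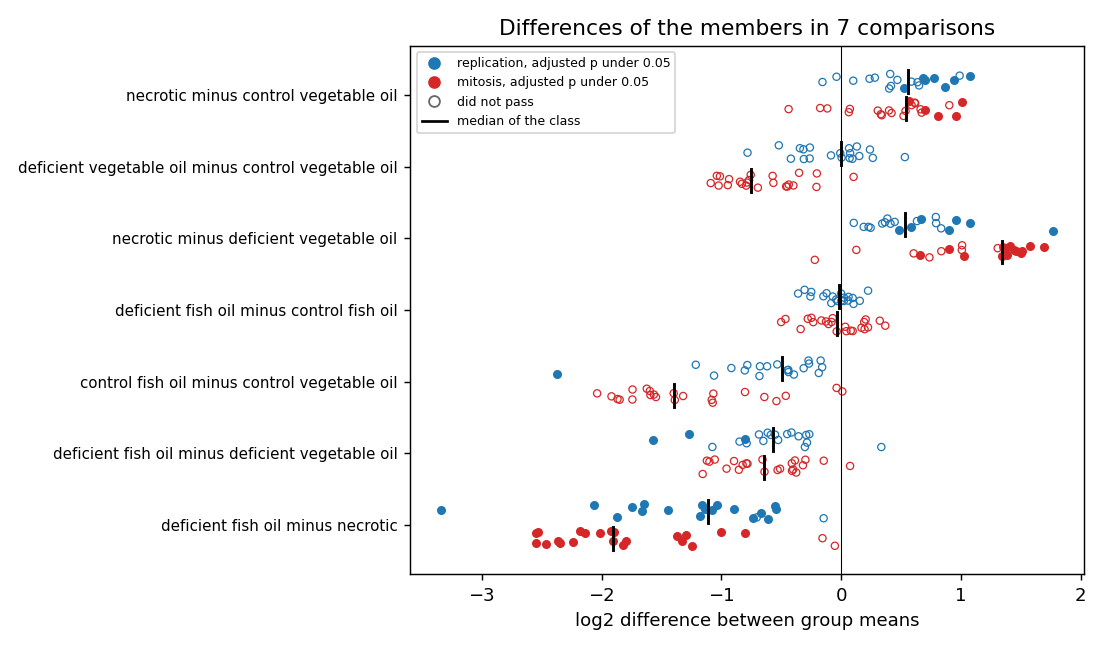
Log2 differences between group means for each measured gene in 7 comparisons (rows, named on the axis), replication in blue and mitosis in red, filled where the adjusted p was under 0.05, with a black bar at the median of each kind. Comparisons that share a group are not independent. Mitosis medians run from -1.90 (deficient fish oil minus necrotic) to 1.34 (necrotic minus deficient vegetable oil).

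The oils were compared within each choline supply. With choline, fish oil kidneys had lower means than vegetable oil kidneys for 20 of 20 replication and 22 of 23 mitosis genes, but only Rrm2 passed. Rrm2 fell by 2.37 ± 0.31 (adjusted p = 0.0321), a 5.18-fold lower level. In this comparison 0.0993% of all probe sets fell, and 0 of 23 mitosis genes did. At an unadjusted p under 0.05, 12 replication and 21 mitosis genes were lower and 0 higher, against 5.67% lower among all probe sets. Fish and vegetable oil pools did not overlap for 19 replication and 21 mitosis genes, against 21.7% of all probe sets in that direction. Median differences were -0.49 for replication and -1.40 for mitosis genes. The mitosis genes nearest to the threshold were Aurkb at -1.56 ± 0.23 (adjusted p = 0.0545) and Foxm1 at -1.08 ± 0.17 (0.0562), and Top2a had the largest difference, -2.04 ± 0.36 (0.0802). Plk1, Aurkb, Cdk1 and Foxm1 passed under the 25th percentile filter, Plk1, Aurkb and Foxm1 under a trended and robust prior, Aurkb, Top2a and Foxm1 without either necrotic pool and Plk1 without either deficient vegetable oil pool. Rrm2 no longer passed without any 1 of the control vegetable oil, control fish oil or deficient fish oil pools (adjusted p up to 0.271). Of 11 macrophage markers 0 passed here, and 4 were lower at an unadjusted p under 0.05, with a median of -0.34. So were 3 of 5 fibroblast markers (median -0.42) and 2 of 5 proximal tubule markers (-0.23).

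Without choline, fish oil kidneys were compared with the vegetable oil kidneys not called necrotic. Again nearly all members were lower, 19 of 20 replication and 22 of 23 mitosis genes, and 3 replication genes fell. These were Rrm2 (-1.57 ± 0.31, adjusted p = 0.0457), Mcm5 (-1.27 ± 0.23, 0.0355) and Prim1 (-0.80 ± 0.15, 0.0351), where 1.39% of all probe sets fell. Of 23 mitosis genes 0 passed, while at an unadjusted p under 0.05 10 mitosis and 14 replication genes were lower, 1 replication gene (Tyms) was higher, and 6.83% of all probe sets were lower and 5.8% higher. Aurkb, at -1.16 ± 0.23 (adjusted p = 0.0509), was the closest of the mitosis genes, and it passed without either necrotic pool. All 3 calls depended on single arrays. Mcm5 and Prim1 no longer passed without any 1 of the control vegetable oil, deficient fish oil or deficient vegetable oil pools. Rrm2 depended on the most arrays, since it no longer passed without any 1 array other than deficient vegetable oil replicate 2. The mitosis median was -0.64, and it was -0.33 without deficient vegetable oil replicate 1 and -1.10 without replicate 2. Macrophage markers fell with them, 8 of 11, with a median of -1.26, as did 2 of 6 neutrophil markers (-0.70), and their part was not tested.

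Because the difference between the oils had the same sign under both choline supplies for most members, a contrast of the mean of both fish oil groups with the mean of both vegetable oil groups not called necrotic was added after the data were seen. It uses the same 8 pools as the previous contrasts and is no separate evidence. Of 20 replication genes 8 fell, against 1.69% of all probe sets, with a median of -0.54. Rrm2 (-1.97 ± 0.22, adjusted p = 0.00455), Mcm5 (-1.24 ± 0.16, 0.00994), Mcm6 (-1.07 ± 0.19, 0.0248), Ccne1 (-0.83 ± 0.16, 0.0343) and Pole (-0.80 ± 0.13, 0.0201) were followed by Prim1, Mcm2 and E2f8, at -0.62 to -0.55. Of 23 mitosis genes 10 fell, with a median of -1.09. Top2a (-1.55 ± 0.25, 0.0205), Cdk1 (-1.44 ± 0.22, 0.017), Aurkb (-1.36 ± 0.16, 0.00779), Ccna2 (-1.36 ± 0.21, 0.0174) and Plk1 (-1.30 ± 0.20, 0.017) were followed by Ccnb1, Tpx2, Bub1, Ttk and Foxm1, at -1.28 to -0.69. The 4 fish oil pools lay below the 4 vegetable oil pools for 15 replication and 14 mitosis genes, as for 4.95% of all probe sets. Many calls were lost when 1 pool was left out, which also leaves fewer arrays in the fit. The medians meanwhile stayed between -0.56 and -0.50 for replication and between -1.33 and -0.82 for mitosis genes. The replication count fell to 1 without control vegetable oil replicate 1, to 2 without control vegetable oil, deficient fish oil or control fish oil replicate 2, and to 3 without deficient fish oil replicate 1 or deficient vegetable oil replicate 2. The mitosis count fell to 1 (Aurkb) without either deficient fish oil pool, control vegetable oil replicate 1 or control fish oil replicate 2, to 2 without control fish oil replicate 1 and to 5 without control vegetable oil replicate 2. Macrophage markers fell in the same contrast, 8 of 11, with a median of -0.72, as did 1 each of 6 neutrophil, 6 lymphocyte and 5 fibroblast markers, and their part was not tested.

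The widest contrast was that of deficient fish oil against necrotic kidneys, which shared the lack of choline and differed in oil and in necrosis. Of 20 replication genes 18 fell, where 10.5% of all probe sets fell, with a median of -1.11. Rrm2 fell by 3.34 ± 0.31 (adjusted p = 0.0002), a 10.1-fold lower level. Mcm5 (-2.06 ± 0.23, 0.000522), Mcm6 (-1.87 ± 0.26, 0.00147), Ccne1 (-1.75 ± 0.22, 0.00087) and Cdc6 (-1.67 ± 0.22, 0.00119) came next. The other 13 lay between -1.65 (Pole) and -0.54 (Tk1), and Tyms and Ccne2 did not pass. Of 23 mitosis genes 21 fell, with a median of -1.90. Plk1 (-2.55 ± 0.29, 0.000522), Ttk (-2.54 ± 0.31, 0.000712), Aurkb (-2.53 ± 0.23, 0.000202), Ccna2 (-2.46 ± 0.30, 0.000778) and Top2a (-2.36 ± 0.36, 0.00219) fell most. The other 16 lay between -2.34 (Cdk1) and -0.80 (Ube2c), and Kif11 and Melk did not pass. Without deficient fish oil replicate 2 the replication count was 11, and leaving out any other array gave at least 15 replication and 18 mitosis genes. Median centring turned the share of rises among all calls from 46.9% to 60.4% and shifted the median difference of all probe sets, -0.01, to 0.10. Among the markers 10 of 11 of macrophages, 5 of 5 of fibroblasts, 4 of 6 of neutrophils and 5 of 6 of erythroid cells fell, 4 of 5 of the proximal tubule and 2 of 2 of the thick ascending limb rose, and their part was not tested.

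Whether the effect of choline depended on the oil was tested by interaction terms. For the deficient kidneys not called necrotic, the interaction median was -0.03 over replication and -0.70 over mitosis genes, and with limma 0 members passed, where 0.103% of all probe sets did. At an unadjusted p under 0.05 Bub1 (-1.46 ± 0.46), Foxm1 (-0.78 ± 0.24) and Tyms (-0.52 ± 0.16) were below 0, each with an adjusted p of 0.37 or more, against 4.16% of all probe sets. With the necrotic kidneys in their place the medians were 0.61 and 0.43, 0 members passed, and 8.72% of all probe sets did. At an unadjusted p under 0.05 8 replication and 3 mitosis genes were above 0, against 12.3% of all probe sets, led by Ttk (1.47 ± 0.43, adjusted p = 0.0745) and Cdc6 (1.05 ± 0.32, adjusted p = 0.0805). Single pools moved the mitosis medians, from -1.14 (without deficient vegetable oil replicate 1) to -0.30 (without replicate 2) in the former and from 0.82 (without necrotic replicate 1) to 0.086 (without replicate 2) in the latter interaction. Without necrotic replicate 1, 3 replication genes (Cdc6, Gins1 and Pole) and 3 mitosis genes (Ttk, Bub1b and Birc5) passed.

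The pools of a group differed from each other in a way the mitosis genes shared. In the necrotic pools replicate 2 was above replicate 1 for 23 of 23 mitosis genes, by a median of 0.76, while 42.6% of all probe sets had that order. In the deficient vegetable oil pools replicate 2 was below replicate 1 for 22 of 23, with a median difference of -0.75, and in the control vegetable oil pools for 23 of 23, with one of -0.34. Of all probe sets 58.4% and 50.1% had replicate 2 above in these groups. In the deficient and control fish oil groups the order was mixed, with replicate 2 above for 10 of 23 and 11 of 23, against 49.8% and 47.1% of all probe sets. Replication genes had this feature only in part, with 19 of 20 above in the necrotic replicate 2, 9 of 20 in the deficient and 2 of 20 in the control vegetable oil pools. The pooled standard deviation between pools was 0.38 for the mitosis median and 0.13 for the replication median. Beside this, the mean log2 level of the macrophage markers was 9.80 and 9.88 for necrotic pools. It was 8.47 and 8.97 for deficient and 7.81 and 7.94 for control vegetable oil pools, and the fish oil pools lay between 7.56 and 7.64. Replicate 2 had the higher macrophage mean in every group. Its mitosis median was the higher one in the necrotic group and the lower one in each of the others. A relation between the 2 was not tested.

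**Figure D5:**
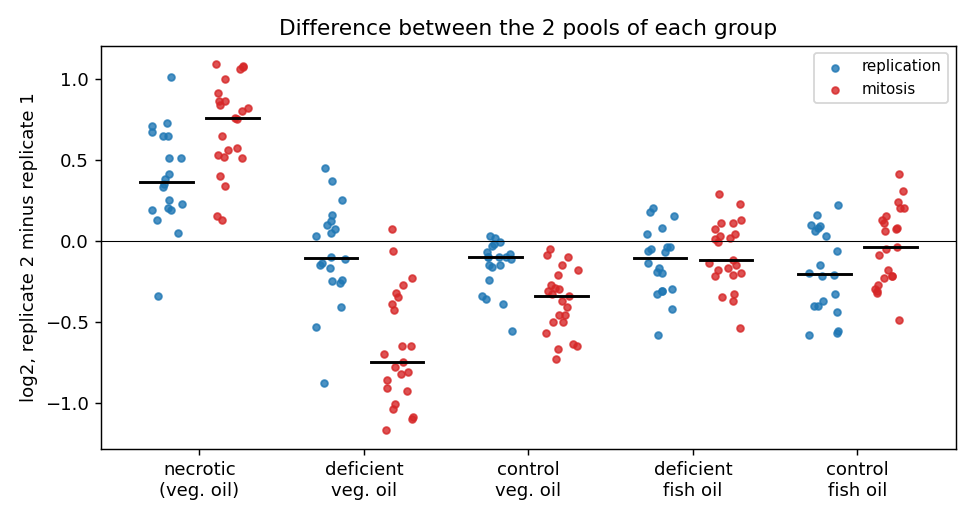
Replicate 2 minus replicate 1 in log2 for each measured gene by group, replication in blue and mitosis in red, with a black bar at the median. Mitosis genes lie above 0 in the necrotic group (median 0.76), below it in the deficient and control vegetable oil groups (-0.75 and -0.34), and near it in the fish oil groups (-0.12 and -0.04).

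Other genes of the same processes, listed by function but with earlier results of these data known, ran alongside the members. Beside the counts below, 10.2% of all probe sets rose and 10.7% fell between necrotic and control vegetable oil kidneys. Between necrotic and deficient vegetable oil kidneys 4.71% rose, and from necrotic to deficient fish oil kidneys 10.5% fell. Of 37 further replication genes 31 were measured. Between necrotic and control vegetable oil kidneys 14 of these rose and 1 (Dut) fell, led by Mcm10, which joins the helicase at activation, by 1.17 ± 0.18 (adjusted p = 0.0022), Gmnn, geminin, which blocks relicensing, by 1.11 ± 0.20 (0.00478) and Pola2, a subunit of polymerase alpha, by 0.97 ± 0.15 (0.00244). Between necrotic and deficient vegetable oil kidneys 9 rose, led by Uhrf1, which maintains DNA methylation, by 1.03 ± 0.26 (0.0391), Brca1 by 0.98 ± 0.20 (0.0198) and Mcm10 by 0.87 ± 0.18 (0.018). From necrotic to deficient fish oil kidneys 21 fell, with Uhrf1 (-1.80), Mcm10 (-1.46) and Gmnn (-1.28) in front. Of 57 further mitosis genes 39 were measured, and 10, 19 and 31 of them passed in the same 3 comparisons and directions. Lmnb1, lamin B1 (1.30 ± 0.22, adjusted p = 0.0042), Trip13 (1.17 ± 0.27, 0.0161) and Cdc25c, the phosphatase that activates Cdk1 (1.13 ± 0.19, 0.00371), led the rise over control kidneys. Pttg1, securin (1.74 ± 0.29, 0.00864), Cdca3 (1.63 ± 0.33, 0.0192) and Dlgap5 (1.62 ± 0.19, 0.0018) led that over deficient ones, and Cdca3 (-2.59), Pttg1 (-2.40) and Dlgap5 (-2.15) the fall to deficient fish oil kidneys. In the remaining comparisons between 2 groups 0 genes of either further list passed with limma. In the interaction with the necrotic kidneys 1 further replication and 4 further mitosis genes passed, all above 0, against 8.72% of all probe sets in either direction. At an unadjusted p under 0.05, 27 further mitosis and 8 further replication genes were lower in control fish oil than in control vegetable oil kidneys, against 5.67% of all probe sets. In the added contrast of the oils 8 further mitosis genes fell, against 1.69% of all probe sets. Pbk at -1.51 ± 0.27, Cdca3 at -1.45 ± 0.24 and Pttg1 at -1.27 ± 0.21 were in front. In that contrast 0 further replication genes passed, with 18 lower at an unadjusted p under 0.05 against 8.1% of all probe sets.

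Genes that act before S phase and genes that halt the cycle were described as lists of their own. Of 10 genes of G1 entry, Myc, a growth-promoting transcription factor, measured 10.14 and 9.90 for necrotic, 10.04 and 10.44 for deficient vegetable oil, 7.90 and 8.03 for control vegetable oil, 8.94 and 8.70 for deficient fish oil and 8.66 and 8.91 for control fish oil pools. Both vegetable oil groups without choline were high and the other 3 groups were lower. Myc rose by 2.28 ± 0.17 (adjusted p = 0.0011) in the deficient and by 2.05 ± 0.17 (0.000149) in the necrotic over the control vegetable oil kidneys, and its interaction of choline with oil passed (2.24 ± 0.24, 0.0242). Ccnd1, cyclin D1, fell in the necrotic against the control vegetable oil kidneys (-0.79 ± 0.13, 0.00356), and Cdk6, a partner kinase of the D cyclins, rose by 0.76 ± 0.12 (0.00262). Ccnd2 fell in deficient fish oil against deficient vegetable oil kidneys (-0.76 ± 0.12, 0.0232). Of 13 measured cell cycle inhibitors, 5 rose and 2 fell in necrotic against control vegetable oil kidneys, where 10.2% of all probe sets rose and 10.7% fell. Cdkn1a, the p21 inhibitor of cyclin-dependent kinases, measured 10.98 and 10.71 for necrotic, 10.01 and 10.66 for deficient vegetable oil, 9.24 and 9.41 for control vegetable oil, 9.56 and 9.38 for deficient fish oil and 9.63 and 9.0 for control fish oil pools. It rose by 1.52 ± 0.26 (0.00364), Gadd45a, a DNA damage response gene, by 0.95 ± 0.19 (0.00886) and Pkmyt1, the kinase that holds Cdk1 inactive, by 0.93 ± 0.16 (0.00394), and Cdkn2b and Cdkn2a rose by 0.75 and 0.56. Rbl2 and Rb1, pocket proteins that bind E2F factors, fell as well, at -0.73 ± 0.12 (0.00273) and -0.59 ± 0.15 (0.0225). The same 13 genes had 0 calls between deficient and control vegetable oil kidneys with limma. At an unadjusted p under 0.05, 3 were higher and 1 lower, against 7.99% higher and 7.2% lower among all probe sets.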

How the data were processed

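RNA of 10 pools of 3 rat kidneys each was hybridised to 1-colour expression arrays, 2 pools in each of 5 groups read from the sample names. The authors deposited 1 log2 intensity for each probe set and array, made with RMA per the submitters' processing notes. The program that ran it is not given in the sources at hand. They were used as deposited, with array medians between 7.28 and 7.43. The annotation names 1 gene for 15310 of 29214 probe sets, several for 323 and none is listed for 13581.

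All 5 groups were fitted together with limma 3.58.1 (lmFit and eBayes in R 4.3.3; degrees of freedom 5 residual plus 3.59 from the prior) in 9 contrasts and 1 added after the data were seen, and p was adjusted by Benjamini-Hochberg over all probe sets at 0.05. The scripts were checked on simulated data. Tables, promoter letters and figures were made with Python 3.11.15, pandas 2.3.3, numpy 2.4.6 and matplotlib 3.10.9. Promoter sequences are those of RefSeq (GRCr8), 300 bases each. The number of arrays limits the precision, and pools of shared animals measure no single animal.

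The members, the further gene lists and the rule for naming genes were chosen with earlier results of these data known. By that rule every called member was named for its comparison, beyond 10 the 5 largest of each kind and direction with the rest as ranges. Values on all arrays were given for members called in at least 1 comparison and for the markers Top2a, Pcna, Mcm2, Cdk1 and Ccnb1, and of the further lists the 3 largest called genes. Values of Ccne2, Kif11 and Melk, and of Myc and Cdkn1a, were added after they were seen. Alternatives were median centring, cyclic loess, a filter at the 25th percentile, a trended and robust prior, a fit of the compared groups alone, a replicate block, the average of a gene's probe sets, and leaving out each array.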

Additional observations from a re-analysis of the deposited data

Results flagged for a closer look

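The median of the 23 mitosis genes was lower with choline lack under vegetable oil and nearly level under fish oil. Under vegetable oil, without the necrotic pools, it was lower by 0.66 in the deficient than in the control group (a change of -0.66), and both deficient pools, at 0.25 and -0.36, lay below both control pools, at 0.79 and 0.43. Under fish oil it was higher by 0.05, and both deficient pools, at -0.72 and -0.76, were at or above the control pools, at -0.76 and -0.82. The difference of the 2 changes, -0.72, was picked out by the order of the pools, and the difference of these medians was not tested. The change under fish oil was far smaller than the standard deviation between pools, pooled over all 5 groups (0.38). The fish oil pools of a group lay much closer to each other than that, so this value is not the spread under fish oil. The median of the differences of single genes there was -0.04, so no direction can be read under fish oil. Gene by gene, the interaction test of limma called 0 of 23 mitosis genes, with 2 (Bub1 and Foxm1) below 0 at an unadjusted p under 0.05.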

How the results depend on the processing

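No called member changed sign under the alternatives run. Without 1 array, 4 medians near 0 crossed it, those of the replication genes for deficient against control vegetable oil (-0.077 to 0.029), for deficient against control fish oil (-0.13 to 0.051) and in the interaction without necrotic pools, and that of the mitosis genes for deficient against control fish oil (-0.049 to 0.062). Of 94 calls of named members, 94 held under the 25th percentile filter and under the trended and robust prior, 93 with probe sets averaged, 78 with cyclic loess, 73 with median centring, 59 in a fit of the compared groups alone and between 57 and 87 without 1 array. Replicate numbers did not pair the pools, since deviations of same-numbered pools correlated between -0.173 and 0.136. With the replicate block 78 of the 94 held, and it gave 2 mitosis calls between necrotic and control vegetable oil, 1 replication call between deficient fish and vegetable oil, 11 probe sets in the interaction without necrotic pools and 6 mitosis calls in the added oil contrast.

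For necrotic against control vegetable oil, median centring gave 4 replication and 0 mitosis calls, and cyclic loess and the compared groups alone gave 0 mitosis calls. For deficient against control vegetable oil, the filter and the trended prior each gave 1 replication call, the trended prior 540 probe sets and the groups alone 82. For necrotic against deficient vegetable oil, median centring gave 4 replication calls, and the groups alone 0 replication calls, 1 mitosis call and 654 probe sets. For control fish against control vegetable oil, the filter gave 4 mitosis calls and 115 probe sets, the trended prior 3 and 124, and the groups alone 0 replication calls and 5 probe sets. For deficient fish against deficient vegetable oil, median centring gave 1 and the groups alone 0 replication calls (25 probe sets), and the filter, the trended prior and averaged probe sets each 1 mitosis call. For the interaction without necrotic pools, the filter gave 61 probe sets, the trended prior 67 and the groups alone 14. The groups alone hold fewer arrays and the filter tests fewer probe sets, and the cause of the other shifts was not tested.

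Without 1 array, calls over all probe sets, replication and mitosis genes ranged as follows. Necrotic against control vegetable oil gave 3003 to 6431, 0 to 9 and 0 to 6. Deficient against control vegetable oil gave 32 to 714, 0 and 0 to 1. Necrotic against deficient vegetable oil gave 1040 to 3125, 0 to 7 and 2 to 15. Deficient against control fish oil gave 0 to 2 probe sets. Control fish against control vegetable oil gave 3 to 76, 0 to 1 and 0 to 3. Deficient fish against deficient vegetable oil gave 87 to 691, 0 to 3 and 0 to 1. Deficient fish oil against necrotic gave 3324 to 6084, 11 to 18 and 18 to 21. The interaction without necrotic pools gave 0 to 90 probe sets, and that with them 955 to 2945, 0 to 3 and 0 to 3. The added oil contrast gave 130 to 798, 1 to 10 and 1 to 13. Medians ranged from 0.37 to 0.78 (replication) and 0.17 to 0.90 (mitosis) for necrotic against control vegetable oil, from -1.08 to -0.38 (mitosis) for deficient against control vegetable oil, from 0.44 to 0.74 (replication) and 0.83 to 1.67 (mitosis) for necrotic against deficient vegetable oil, and from -1.10 to -0.33 (mitosis) for deficient fish against deficient vegetable oil. They ranged from -1.19 to -0.95 (replication) and -2.35 to -1.47 (mitosis) for deficient fish oil against necrotic, from -0.18 to 0.072 and -1.14 to -0.30 for the interaction without necrotic pools, and from 0.42 to 0.74 and 0.086 to 0.82 for that with them.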
